A study of Mus musculus with 4 samples.

Results

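The genes described here belong to the Notch pathway: the receptors Notch1, Notch2, Notch3 and Notch4, the ligands Dll1 and Jag1, the DNA-binding factor Rbpj, and the target genes Hes1, Dtx1 and Nrarp. They were chosen by symbol as genes of the pathway, with earlier results of these data known, and all 10 had a row among the 27179 genes of the deposited expression table. RNA was sequenced from sorted LTi (lymphoid tissue inducer) cells of mouse small intestinal lamina propria. LTi cells are group 3 innate lymphoid cells that help to build lymphoid tissue, and the gate was live, lineage-negative, CD127+ and CCR6+, with NKp46, NK1.1 and KLRG1 absent. The control group held 2 libraries of Gata3+/+ mice and the Gata3-KO group 2 libraries of Gata3fl/fl VavCre mice, all of strain C57BL/6. In the Gata3-KO mice Cre is driven by the Vav promoter, which is active throughout blood cells, so floxed Gata3 can be deleted in B, T and myeloid cells as well as in LTi cells. The sources used here do not give age, the Cre status of the control mice, or whether the libraries of a genotype came from separate animals. The p-values therefore measure the spread between these libraries, which may be technical.

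Notch receptors are cut when a Delta-like or Jagged ligand on a neighbouring cell binds them, and the freed intracellular part enters the nucleus, where it joins RBPJ and switches on targets such as Hes1, Dtx1 and Nrarp. Fringe enzymes add sugars to the receptors and alter which ligands bind well, and ubiquitin ligases drive the uptake of ligands and receptors. In innate lymphoid cells of the gut, Notch signalling is known for its part in the formation of group 3 subsets, and Gata3 is itself a known target of Notch in lymphoid cells.

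The promoters of the genes on which the results turn most are shown for the letters to which RBPJ and GATA factors are known to bind. Of the ligands Dll1 and Jag1, Dll1 had the smaller p between genotypes, Dtx1 is the target with the widest spread, and Rbpj codes for the DNA-binding factor itself. The windows run from 250 bases before to 50 bases after a transcription start in RefSeq GRCm38.p6, read 5′ to 3′ on the strand of the gene. Capitals mark the RBPJ letters TGGGAA, also where they lie on the opposite strand, and the GATA letters, which are AGATAA or AGATAG as well as TGATAA or TGATAG; matches of the different kinds do not overlap in these windows.
Dll1, chr17:15376883-15377182, minus strand: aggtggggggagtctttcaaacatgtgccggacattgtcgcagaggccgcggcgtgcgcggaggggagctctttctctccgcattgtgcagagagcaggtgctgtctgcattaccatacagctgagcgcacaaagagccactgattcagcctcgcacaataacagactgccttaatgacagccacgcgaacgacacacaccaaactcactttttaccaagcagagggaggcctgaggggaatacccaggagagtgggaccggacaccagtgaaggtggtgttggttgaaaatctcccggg
Dll1, second start, chr17:15375774-15376073, minus strand: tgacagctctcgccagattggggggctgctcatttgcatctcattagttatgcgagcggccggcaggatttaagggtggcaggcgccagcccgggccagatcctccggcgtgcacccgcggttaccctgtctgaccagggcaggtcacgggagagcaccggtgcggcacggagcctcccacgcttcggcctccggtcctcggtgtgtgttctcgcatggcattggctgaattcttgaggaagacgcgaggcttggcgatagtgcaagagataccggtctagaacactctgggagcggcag
Dtx1, chr5:120711620-120711919, minus strand: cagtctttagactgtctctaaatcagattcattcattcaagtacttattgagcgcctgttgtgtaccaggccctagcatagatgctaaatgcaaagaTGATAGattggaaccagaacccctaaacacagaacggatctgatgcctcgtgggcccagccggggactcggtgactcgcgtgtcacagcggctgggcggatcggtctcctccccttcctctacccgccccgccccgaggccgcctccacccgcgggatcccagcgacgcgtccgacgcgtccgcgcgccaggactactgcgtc
Rbpj, chr5:53590096-53590395, plus strand: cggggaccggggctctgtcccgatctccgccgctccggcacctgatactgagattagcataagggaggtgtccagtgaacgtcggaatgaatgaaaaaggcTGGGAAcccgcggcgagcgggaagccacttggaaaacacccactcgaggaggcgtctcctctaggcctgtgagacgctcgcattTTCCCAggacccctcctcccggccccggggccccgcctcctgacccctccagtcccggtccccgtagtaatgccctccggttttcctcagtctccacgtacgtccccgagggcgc

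RefSeq windows were found for 9 of the 10 genes, 11 windows in all. The RBPJ letters were present on either strand in both windows of Rbpj, which overlap, and in no window of the other 8 genes. In the Rbpj window shown, one match began 149 bases before the start on the gene's strand and another 65 bases before it on the opposite strand. Of all 32851 windows of this length, 25.6% hold these letters. A GATA match was present only in Dtx1, where TGATAG began 153 bases before the start, and 29.8% of all windows hold at least one of the GATA forms. Neither Dll1 window held a match of either kind, which says only that these letters are not in those windows.

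The libraries held 12670034 to 14294708 reads in the control and 23973995 to 24315878 in the Gata3-KO group. Gata3 (Entrez 14462, chromosome 2: 9857078 to 9887953, GRCm38), the gene targeted by the Cre, was at 84.3 and 50.7 RPKM (reads scaled to gene length and library total) in the control libraries, against 34.5 and 23.3 RPKM in the Gata3-KO libraries. Its log2 difference of −1.18 ± 0.36 (SE) did not pass limma's test (adjusted p = 0.0918), and reads outside the floxed exons can remain after deletion. Of 14320 genes tested, 8.74% were called on the deposited scale, 8.06% higher and 0.677% lower in Gata3-KO, and the median tested gene lay 0.43 log2 units higher in Gata3-KO. Median-ratio scaling, which centres the libraries on their typical gene, moved that median to 0.04 and left 1.01% called, 0.573% higher and 0.433% lower. The tests of the 9 tested genes and of the other pathway genes that were called are therefore given on both scales, and a difference is best read against these medians.

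Markers of other cell types moved with the genotype. All 18 markers of LTi and related group 3 innate lymphoid cells had reads in every library, and their summed level was 3863 to 5720 RPKM in the control and 2101 to 2649 RPKM in the Gata3-KO group, or 2343 to 3319 and 1972 to 2363 RPKM without the cytokine gene Il22. Of 18 B and plasma cell markers 13 were called higher in Gata3-KO (1 after median-ratio scaling), where 8.06% and 0.573% of all tested genes were. Their sums were 3636 to 9310 RPKM in control and 23002 to 60882 RPKM in Gata3-KO. Without the immunoglobulin genes Ighm, Ighd and Igha and the joining chain gene Jchain, these sums were 399 to 421 and 1380 to 1441 RPKM. Of 19 epithelial markers 14 were called higher (7 after scaling), where 8.06% and 0.573% of all tested genes were. Their sums were 1567 to 1629 and 4542 to 6715 RPKM. Of 13 T cell markers 4 were called higher (0 after scaling), where 8.06% and 0.573% of all tested genes were. Their sums were 174 to 279 and 500 to 851 RPKM. After scaling 8 of the 13 were higher and 2 lower in both Gata3-KO libraries, where 29.7% and 25.5% of all tested genes were. Lat alone was at 250 RPKM in Gata3-KO replicate 2, where Cd3d and Trac lay below both control libraries. The myeloid and dendritic list (1 of 14 called higher, also after scaling) had sums of 70.8 to 103 and 97.0 to 234 RPKM. The called gene, Siglech, named after its values were seen, was at 0.233 and 0.0659 RPKM in control against 30.8 and 15.3 RPKM in Gata3-KO. Its adjusted p in limma was 0.0117, and 0.0450 after scaling. Of the 14 markers, 4 were higher and 2 lower in both Gata3-KO libraries after scaling. The endothelial and stromal list had sums of 40.3 to 87.8 and 41.4 to 59.4 RPKM, and the sums of both lists overlapped between genotypes. Limma called 0 of the 11 tested endothelial and stromal markers, with 1 at an unadjusted p under 0.05, and of the full 17, 9 and 3 were without reads in the control libraries and 6 and 2 in the Gata3-KO libraries. The called markers Pax5, Fcer2a, Cr2, Lgr5, Cd8b1 and Siglech passed the filter on low values only with the Gata3-KO libraries, where they are high. The sums without Il22 and without the immunoglobulin genes were chosen after the data were seen. The part of these cells in the Notch pathway values below was not tested, and in bulk libraries fewer cells of a type cannot be told apart from less RNA per cell.

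**Figure D1:**
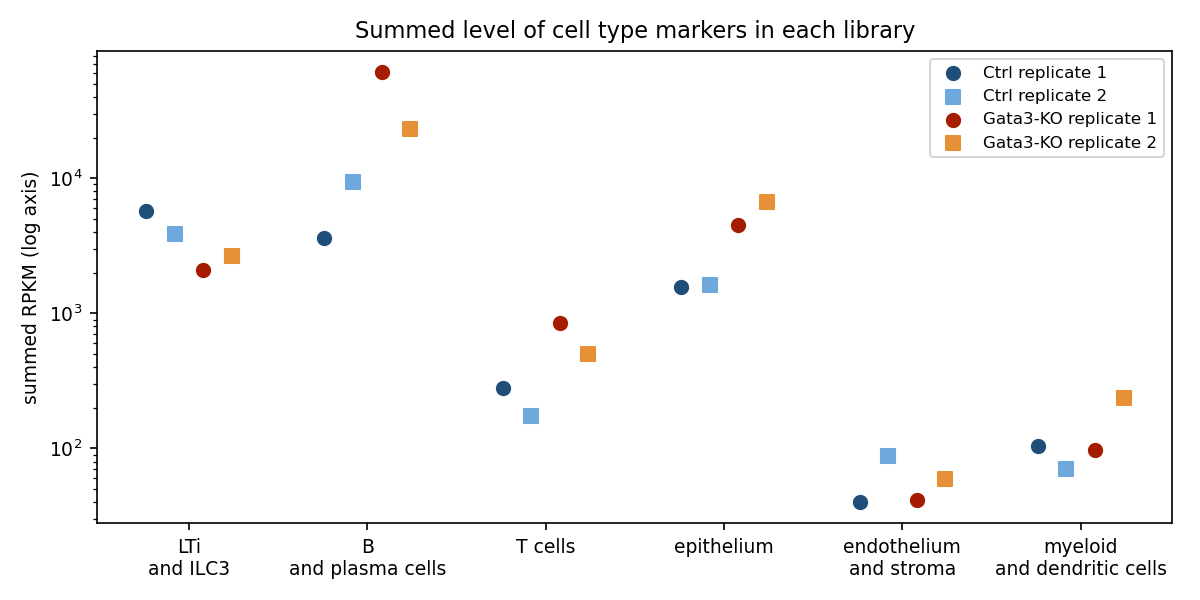
Summed RPKM (vertical log axis) of 6 lists of cell type markers in each of the 4 libraries, 1 point per library. B and plasma cell, T cell and epithelial sums are higher in both Gata3-KO libraries than in both control libraries, and the LTi sum is lower.

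Of the receptor genes, Notch1 and Notch2 had most of the reads in these libraries, at like levels, and Notch3 and Notch4 were close to the limit of detection. No receptor passed the test between genotypes, and no direction held on both scales for Notch2 and Notch4. Notch1 (Entrez 18128, chromosome 2: 26457902 to 26503822) was at 6.00 and 3.58 RPKM in the control libraries, against 9.71 and 5.91 RPKM in the Gata3-KO libraries, from 430 to 2240 reads. The genotypes overlapped, since control replicate 1 lay just above Gata3-KO replicate 2. The log2 difference was 0.60 ± 0.39 (SE, limma adjusted p = 0.339) on the deposited scale and 0.10 ± 0.38 (adjusted p = 0.901) after median-ratio scaling.

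Notch2 (Entrez 18129, chromosome 3: 98013538 to 98150367) was at 4.56 and 6.80 RPKM in control against 8.24 and 6.85 RPKM in Gata3-KO cells. Control replicate 2 and Gata3-KO replicate 2 were nearly equal, and only the deposited scale kept the genotypes apart. The log2 difference was 0.37 ± 0.33 (limma adjusted p = 0.487) on that scale and −0.15 ± 0.34 (adjusted p = 0.841) after median-ratio scaling.

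Notch3 (Entrez 18131, chromosome 17: 32120820 to 32166896) had no reads in control replicate 1, which allows up to 0.0264 RPKM at 3 reads, and stood at 0.209 RPKM in control replicate 2 and at 0.259 and 0.315 RPKM in Gata3-KO, from 21 to 60 reads. Notch4 (Entrez 18132, chromosome 17: 34564286 to 34588543), a receptor best known from blood vessels, was at 0.180 and 0.179 RPKM in control against 0.230 and 0.284 RPKM in Gata3-KO, from 15 to 45 reads. Neither passed the test, with log2 differences of 0.23 ± 0.19 for Notch3 (limma adjusted p = 0.471) and 0.09 ± 0.18 for Notch4 (adjusted p = 0.772). After median-ratio scaling the differences were 0.13 and −0.02, and the genotypes overlapped for both.

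Ratios within a library do not depend on scaling. Notch1 made up 55.9% and 33.2% of the summed receptor RPKM in the control libraries and 52.7% and 44.2% in the Gata3-KO libraries. Notch2 made up 42.5% and 63.2% in control and 44.7% and 51.3% in Gata3-KO. The balance of these receptors thus varied more between the control libraries than between the genotypes, with Notch1 to Notch2 ratios of 1.32 and 0.526 in control and 1.18 and 0.862 in Gata3-KO. Neither Notch3 nor Notch4 exceeded 2.36% of the receptor sum in any library.

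**Figure D2:**
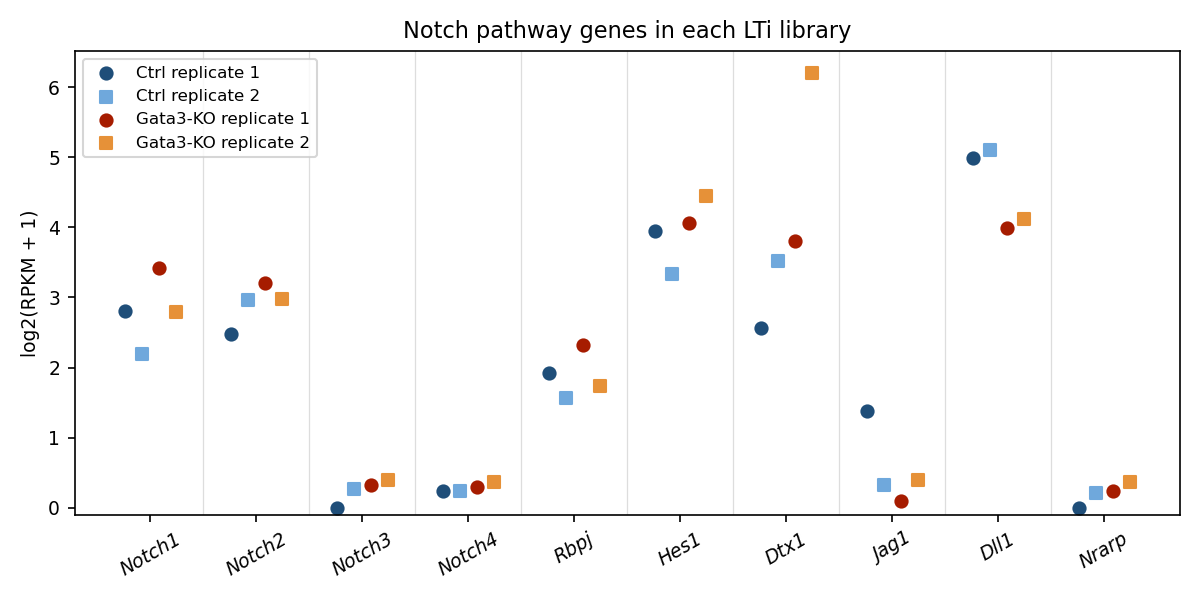
Level of the 10 Notch pathway genes as log2(RPKM + 1) (vertical axis) in each library, 1 point per library. Both Gata3-KO points lie below both control points for Dll1, at 14.9 and 16.4 against 30.7 and 33.3 RPKM, and the 4 points of Dtx1 spread from 4.91 to 72.9 RPKM.

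Dll1 was the best expressed of the ligands and receptors named by the rule, and it was lower in both Gata3-KO libraries. It codes for Delta-like 1, a ligand that activates Notch receptors on neighbouring cells (Entrez 13388, chromosome 17: 15367354 to 15376932). Its level was 30.7 and 33.3 RPKM in control against 14.9 and 16.4 RPKM in Gata3-KO, from 1241 to 1503 reads per library. The genotypes did not overlap, and the libraries of a genotype lay close together, with means of 32.0 ± 1.84 and 15.7 ± 1.10 RPKM (SD, n = 2), a 2.04-fold difference. After median-ratio scaling the values were 35.6 and 43.3 RPKM in control against 12.7 and 12.8 RPKM in Gata3-KO, a 3.10-fold difference. The log2 difference was −0.98 ± 0.26 (SE) with an unadjusted p of 0.00847 and an adjusted p of 0.0665 in limma, and −1.55 ± 0.23 with an adjusted p of 0.0586 after scaling, so Dll1 did not pass the threshold of 0.05. With only the 10050 genes above 5 CPM (reads scaled to the library total alone) tested, the adjusted p was 0.0479.

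Jag1, which codes for the ligand Jagged 1 (Entrez 16449, chromosome 2: 137081451 to 137116520), was at 1.60 and 0.259 RPKM in control against 0.0674 and 0.311 RPKM in Gata3-KO, from 126, 18, 9 and 41 reads. Control replicate 1 stood apart from the other 3 libraries, among which the genotypes overlapped. The log2 difference of −0.61 ± 0.38 (limma adjusted p = 0.324) was −0.09 without control replicate 1. After median-ratio scaling it was −0.77 ± 0.41 (adjusted p = 0.332), and the genotypes did not overlap. Jag1 is also made by blood vessel and stromal cells, whose 17 markers summed to 40.3 RPKM in control replicate 1 and to 41.4 to 87.8 RPKM in the other libraries. In control replicate 1, 9 of the 17 were without reads (Cdh5, Kdr, Vwf, Emcn, Pdgfra, Cspg4, Rgs5, Des and Pdpn). Pecam1 was at 23.9 RPKM there and at 18.7 to 27.3 RPKM in the other libraries. Pdgfrb was at 14.2 RPKM there and at 5.10 to 22.8 RPKM in the others. The part of such cells in the Jag1 values was not tested.

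The make-up of the ligands within each library differed between the genotypes. Jag2, the gene of the other Jagged ligand, was at 23.2 and 39.0 RPKM in control against 3.53 and 9.75 RPKM in Gata3-KO. Both Gata3-KO libraries lay below both control libraries, and the log2 difference was −2.16 ± 0.49 (limma adjusted p = 0.0501), or −2.70 after scaling (adjusted p = 0.0778). With only genes above 5 CPM tested, Jag2 passed (adjusted p = 0.0294). Dll4 rose from 0.0608 and 0.435 to 2.69 and 6.71 RPKM, from 3, 19, 226 and 555 reads, with a log2 difference of 2.11 ± 0.45 (limma adjusted p = 0.0434). Delta-like 4, its product, is the ligand that drives T cell development in the thymus. Dll3, whose product is known to inhibit Notch signalling in the cell that makes it, had no reads in either control library and 1.90 and 2.26 RPKM in the Gata3-KO libraries, from 100 and 117 reads. Dll3 rose (limma adjusted p = 0.0263) and was at least 17.4-fold higher in Gata3-KO, taking the lower Gata3-KO library against 3 reads per library in control. Both Dll3 and Dll4 passed the filter on low values only with the Gata3-KO libraries, where they are high. The direction of these calls was thus partly set by the filter. Neither Dll4 (log2 difference 1.80, adjusted p = 0.106) nor Dll3 (adjusted p = 0.0619) passed after median-ratio scaling, although both genes stayed higher in both Gata3-KO libraries.

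As shares of the summed RPKM of these 5 ligands, Dll1 held 55.3% and 45.6% in control and 64.5% and 46.3% in Gata3-KO, which overlap. Jag2 held 41.7% and 53.4% in control and 15.3% and 27.5% in Gata3-KO. Dll4 held 0.110% and 0.596% against 11.7% and 18.9%, and Dll3 held 0% and 0% against 8.24% and 6.36%. The summed ligand level was 55.5 and 72.9 RPKM in control against 23.1 and 35.5 RPKM in Gata3-KO. The genotypes did not overlap in the Jag2, Dll4 and Dll3 shares or in the sum. With 2 libraries against 2, a two-sided exact permutation test cannot give a p below 0.333, so these shares carry no test. The epithelial, B cell and T cell marker sums, higher in the same libraries as Dll3 and Dll4, were given above, and their part was not tested.

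**Figure D3:**
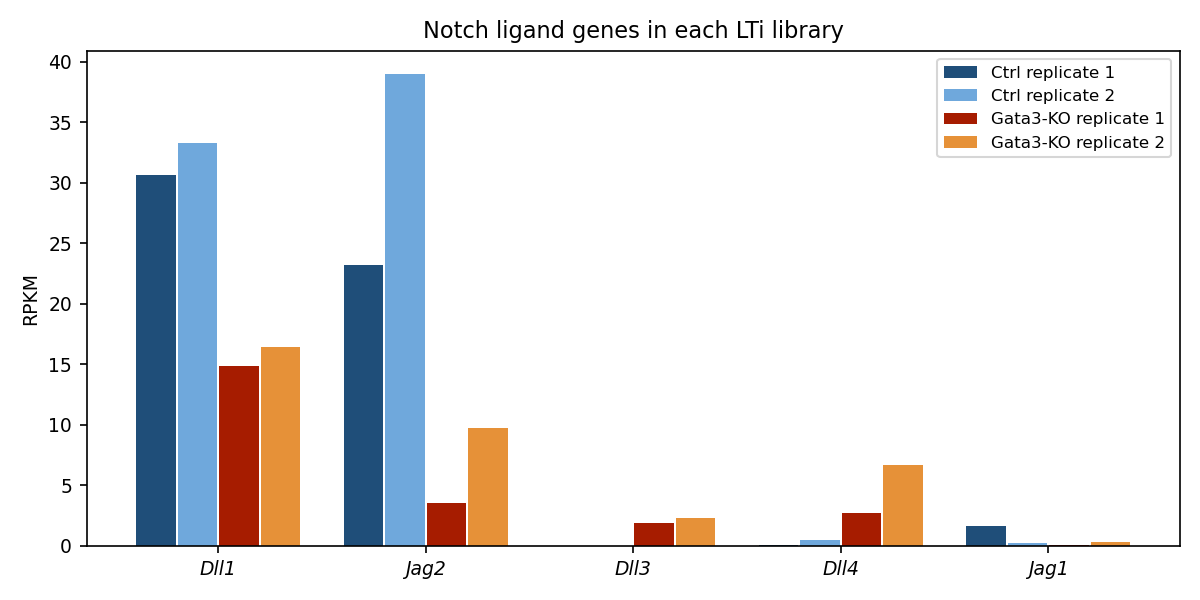
RPKM (vertical axis, from 0) of 5 Notch ligand genes, 1 bar per library. Dll1 and Jag2 are lower in both Gata3-KO libraries, Dll3 and Dll4 are higher in them, and Jag1 stands at 1.60 RPKM in control replicate 1 and at or under 0.311 RPKM in the other libraries.

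Set against the receptors of the same library, the ligand Dll1 was at 2.86 and 3.09 times the receptor sum in the control libraries and at 0.807 and 1.23 times in the Gata3-KO libraries. These ratios did not overlap between the genotypes. Like the ligand shares they carry no test, since a two-sided exact permutation test of 2 against 2 cannot give a p below 0.333. Among all tested genes, taken singly, 29.7% were higher and 25.5% lower in Gata3-KO without overlap after median-ratio scaling.

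Rbpj, which codes for the DNA-binding factor through which all 4 receptors act (Entrez 19664, chromosome 5: 53555779 to 53657445), was at 2.78 and 1.95 RPKM in control against 3.98 and 2.34 RPKM in Gata3-KO. The genotypes overlapped on both scales, with a log2 difference of 0.29 ± 0.37 (limma adjusted p = 0.639) and −0.14 ± 0.36 after scaling (adjusted p = 0.853). Its promoter, shown above, was the only one among the 9 matched genes with the RBPJ letters.

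Hes1, the repressor gene most widely used as a readout of Notch (Entrez 15205, chromosome 16: 30065357 to 30067796), was at 14.4 and 9.08 RPKM in control against 15.6 and 20.8 RPKM in Gata3-KO. Control replicate 1 and Gata3-KO replicate 1 were close, and the log2 difference was 0.61 ± 0.34 (limma adjusted p = 0.274). After median-ratio scaling it was 0.05 ± 0.28 (adjusted p = 0.932) with overlapping genotypes.

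Dtx1 codes for Deltex 1, a ubiquitin ligase that regulates Notch in lymphoid cells (Entrez 14357, chromosome 5: 120680203 to 120711867). It had the largest log2 difference of the 9 tested genes and also the largest error. It was at 4.91 and 10.4 RPKM in control against 13.0 and 72.9 RPKM in Gata3-KO, from 261, 491, 1177 and 6491 reads. Gata3-KO replicate 2 stood far above the other 3 libraries, and Gata3-KO replicate 1 was near control replicate 2. The log2 difference was 1.97 ± 0.88 (limma adjusted p = 0.213), or 0.77 without Gata3-KO replicate 2 and 3.17 without Gata3-KO replicate 1. After median-ratio scaling it was 1.42 ± 0.82 (adjusted p = 0.373), and control replicate 2 lay above Gata3-KO replicate 1. The ratio of Dtx1 to Hes1 also overlapped, at 0.341 and 1.15 in control and 0.834 and 3.51 in Gata3-KO.

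Nrarp, which codes for a feedback inhibitor of Notch (Entrez 67122, chromosome 2: 25180758 to 25183339), was barely detected. It had no reads in control replicate 1, which allows up to 0.0813 RPKM at 3 reads, and stood at 0.153 RPKM in control replicate 2 and at 0.175 and 0.291 RPKM in Gata3-KO, from 5, 11 and 18 reads. It did not pass the filter on low values and was not tested, and a difference was not detectable at this depth.

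Among the 9 tested genes, limma called 0 at an adjusted p under 0.05, against 8.74% of all tested genes, and 1, Dll1, had an unadjusted p under 0.05, against 30.3%. The same counts, 0 and 1, were found after median-ratio scaling (1.01% and 22.5% of all genes) and with limma-voom on recovered reads (1.85%, of which 1.53% higher and 0.321% lower, and 27.9%). The median log2 difference of the 9 genes was 0.29, beside 0.43 for all tested genes, and −0.02 beside 0.04 after scaling. On the deposited scale 5 of the 9 were higher in both Gata3-KO libraries than in both control libraries and 1 was lower, where 53.8% and 7.59% of all tested genes were. After scaling 0 were higher and 2, Dll1 and Jag1, were lower, where 29.7% and 25.5% of all tested genes were. In simulated data of this size the test called 19.7% of genes changed 2-fold and 91.5% of those changed 4-fold. Most changes of the size seen in the receptors, Rbpj and Hes1 could thus be missed. The simulation gave all genes the same spread, taken from the better expressed ones, and no general shift between genotypes. It also changed a smaller share of genes than the 8.74% called here, and the rates after adjustment depend on that share. The simulated rates need not hold in these data, or for genes of wider spread such as Dtx1, whose means differed 5.60-fold without passing.

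**Figure D4:**
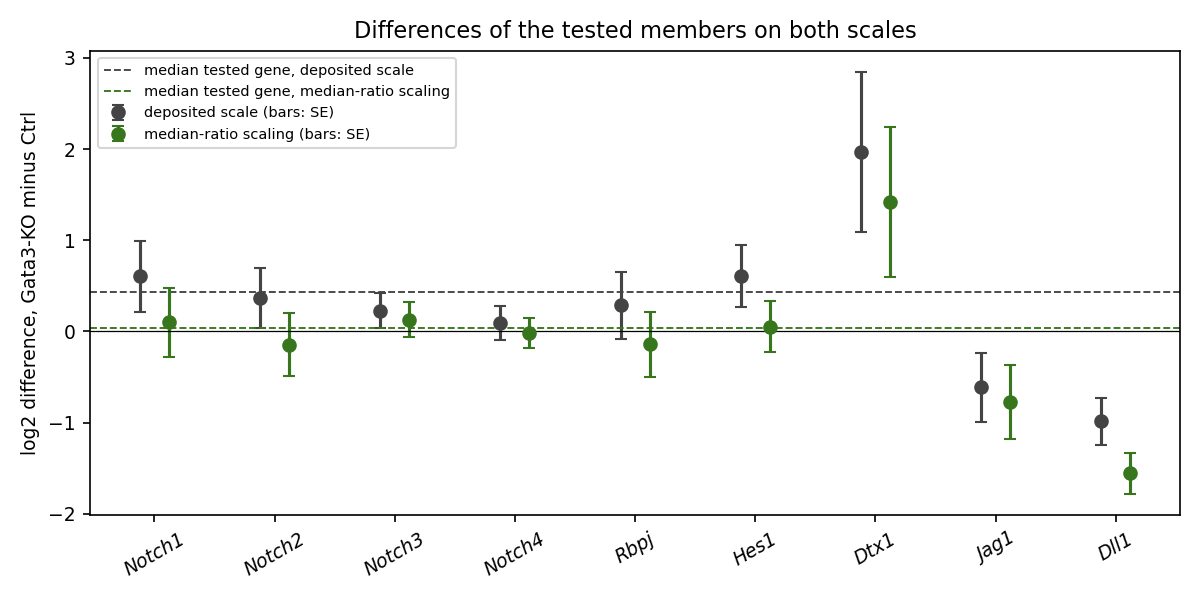
log2 difference, Gata3-KO minus control (vertical axis), of the 9 tested genes before and after median-ratio scaling, with bars for the standard error and dashed lines for the median of all tested genes. Dll1 lies furthest below the medians, at −0.98 and −1.55, and Dtx1 furthest above with the longest bars.

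The rest of the pathway was described by 8 lists with 81 genes, 70 of them tested. On the deposited scale 6 were called higher and 0 lower in Gata3-KO, where 8.06% and 0.677% of all genes were. An unadjusted p under 0.05 was found for 17 of the 70, where 30.3% of all tested genes had one. Their median log2 difference was 0.26, beside 0.43 for all tested genes, and it was the same with Dll3 set at its bound. With median-ratio scaling 0 passed as higher and 1 as lower, where 0.573% and 0.433% of all tested genes did. The median was then −0.19 beside 0.04 for all tested genes. Without overlap of the genotypes 12 genes were higher and 29 lower, where 29.7% and 25.5% of all tested genes were. The 6 called genes were Dll3, Dll4, Rfng, Hes6, Myc and Bcl11b. Of these, Dll3 and Dll4 passed the filter on low values only with the Gata3-KO libraries, where they are high. The control libraries alone would not have brought them into the test. All 6 stayed higher in both Gata3-KO libraries after scaling, where their adjusted p ran from 0.0590 for Bcl11b to 0.193 for Rfng. With any 1 of the 4 libraries left out, 0 of the 6 passed on the deposited scale. After scaling Myc passed without control replicate 2 (adjusted p = 0.0474), and the other 5 did not pass without any library.

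Of 10 genes that process the receptors, furin, the ADAM proteases and the subunits of gamma-secretase, limma called 0 on either scale, where 8.74% of all tested genes were called on the deposited one. An unadjusted p under 0.05 was found for 1, where 30.3% of all tested genes had one, and for 2 after scaling, where 22.5% had. Adam10, the protease that makes the first ligand-induced cut, was at 1.84 and 3.77 RPKM in control against 5.40 and 4.65 RPKM in Gata3-KO, a log2 difference of 0.71 ± 0.38 (limma adjusted p = 0.261), or 0.24 after scaling with overlapping genotypes. Ncstn, a subunit of the gamma-secretase that releases the intracellular part, differed by 0.44, and by −0.14 after scaling. Psen2, a catalytic subunit, named after its values were seen, was lower in both Gata3-KO libraries at 25.4 and 29.1 RPKM against 50.7 and 40.3 RPKM. Its log2 difference of −0.71 ± 0.27 had an adjusted p of 0.144, and of 0.0644 after scaling (limma).

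Of 6 genes of receptor glycosylation 1 was called (8.74% of all tested genes), and 0 after scaling (1.01%). Rfng (radical fringe) rose from 6.01 and 5.48 to 17.4 and 14.1 RPKM, a log2 difference of 1.31 ± 0.29 (limma adjusted p = 0.0477), or 0.77 after scaling. The other fringe genes did not pass: Mfng was at 10.6 and 11.5 RPKM in control against 21.6 and 16.9 RPKM in Gata3-KO, a log2 difference of 0.74 (adjusted p = 0.145), or 0.18 after scaling with overlapping genotypes. Lfng differed by 0.27, and by −0.22 after scaling, with overlapping genotypes. Pofut1, the enzyme that adds the fucose on which fringe proteins build, differed by 0.26 and was at or under 1.56 RPKM in every library.

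Of 15 tested genes of ligand and receptor uptake and turnover limma called 0 on the deposited scale and 2 had an unadjusted p under 0.05 (8.74% and 30.3% of all tested genes). Neurl3, of the neuralized family of ubiquitin ligases and named after its values were seen, was at 831 and 624 RPKM in control against 283 and 348 RPKM in Gata3-KO. Its log2 difference was −1.20 ± 0.32 (limma adjusted p = 0.0697), and after median-ratio scaling it fell by 1.79 on the log2 scale (adjusted p = 0.0497), the only pathway gene called on that scale. Mib1, the ligase that drives ligand uptake, Numb, an inhibitor of Notch, and Itch, a ligase that acts on the receptors, had log2 differences of −0.12, 0.31 and −0.04.

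Of 8 nuclear co-activators and 14 tested co-repressors limma called 0 on either scale, and 0 and 2 had an unadjusted p under 0.05 on the deposited one (30.3% of all tested genes). Maml1, the co-activator that joins the complex of RBPJ and cleaved Notch, differed by 0.02 on the log2 scale, and Spen, a co-repressor of RBPJ, by −0.20. On the deposited scale 4 of the 8 co-activators were higher in both Gata3-KO libraries and 0 were lower. Of the 14 co-repressors 2 were higher and 2 lower, where 53.8% and 7.59% of all tested genes were. After median-ratio scaling 0 of the 8 were higher and 4 lower, and 1 of the 14 was higher and 7 lower. The shares of all tested genes were then 29.7% and 25.5%.

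Among the HES and HEY targets other than Hes1, 3 of 8 passed the filter and 1 was called (8.74% of all tested genes), and 0 after scaling (1.01%). Hes6, a HES family gene that is not a typical Notch target and whose protein opposes HES1, rose from 3.72 and 4.73 to 23.8 and 42.2 RPKM, a 7.81-fold difference of the means (log2 difference 2.65 ± 0.36, limma adjusted p = 0.0205). After scaling its difference was 2.12 (adjusted p = 0.0644). Hey1, a direct target, was at 11.8 RPKM in control replicate 1 and at 1.68, 1.34 and 1.63 RPKM in the other libraries. Its log2 difference of −1.24 ± 0.74 (adjusted p = 0.316) was −0.11 without control replicate 1, the library that was also high in Jag1. Heyl was at or under 0.864 RPKM in every library, and Hes5 had reads, 29 of them, only in Gata3-KO replicate 1.

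Of 9 tested genes known as Notch targets in lymphoid cells 2 were called and 5 had an unadjusted p under 0.05, where 8.74% and 30.3% of all tested genes did. After scaling 0 were called and 5 had an unadjusted p under 0.05, where 1.01% and 22.5% did. On both scales the 5 included Cd3e and also Gata3, which the Cre targets and which is therefore no free test of the pathway. Myc, a driver of cell growth, rose from 4.67 and 16.6 to 67.3 and 80.2 RPKM (log2 difference 2.90 ± 0.55, limma adjusted p = 0.0373), with a difference of 2.33 after scaling (adjusted p = 0.120). Bcl11b, a T cell and innate lymphoid commitment factor, rose from 0.494 and 0.169 to 5.33 and 7.03 RPKM (2.43 ± 0.34, adjusted p = 0.0215), with a difference of 2.11 after scaling (adjusted p = 0.0590). Cd3e, a T cell receptor subunit that is also one of the T cell markers and was named after its values were seen, was at 2.58 and 5.66 RPKM in control against 111 and 26.3 RPKM in Gata3-KO (adjusted p = 0.0503). The part of T cells in the Bcl11b values was not tested. Tcf7, an early target in T cell and innate lymphoid precursors, was at 165 and 117 RPKM in control against 185 and 196 RPKM in Gata3-KO (log2 difference 0.45, adjusted p = 0.354). Il2ra was at 57.3 and 42.8 RPKM in control against 44.9 and 65.5 RPKM in Gata3-KO, which overlap (limma adjusted p = 0.818).

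**Figure D5:**
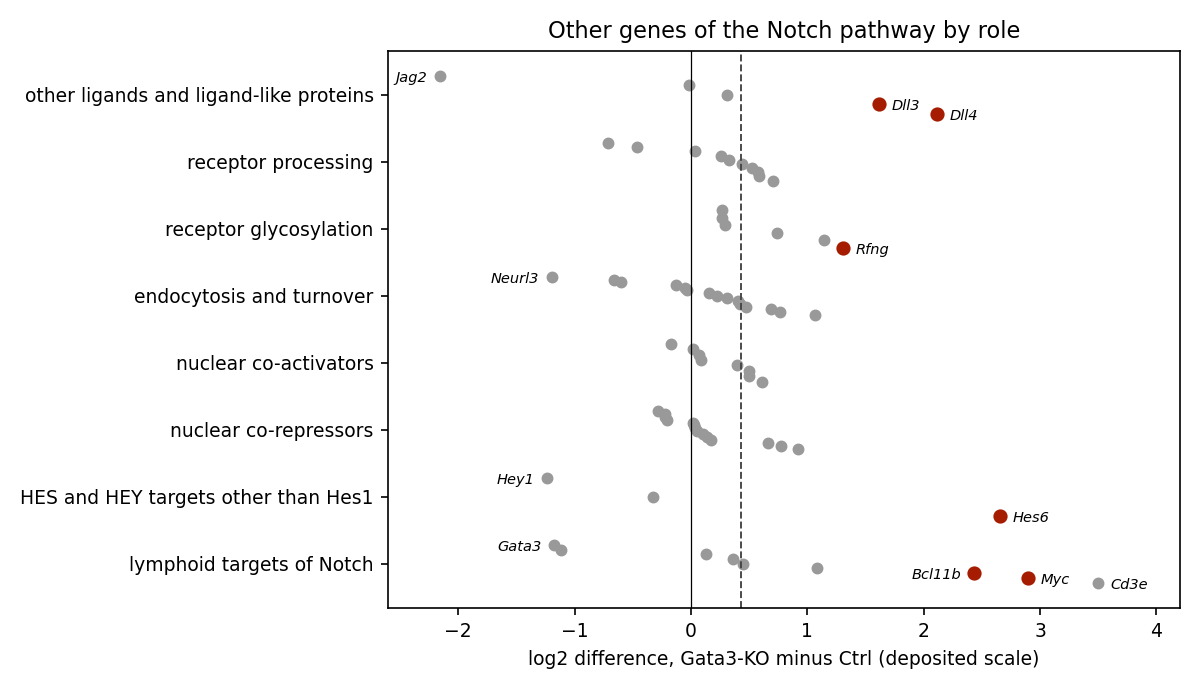
log2 difference, Gata3-KO minus control, on the deposited scale (horizontal axis) of the 70 tested pathway genes in 8 lists, with called genes in red and a dashed line at the median of all tested genes, 0.43. The 6 called genes lie to the right, and Jag2, Hey1, Neurl3 and Gata3 lie furthest to the left.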

How the data were processed

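Smart-seq2 libraries were made from RNA of a Qiagen miRNeasy Micro kit, per the labels' protocols. The submitters' processing notes name Subread, featureCounts and the build mm10. The sources used here do not give versions, annotation or strand setting, so a gene and an antisense partner may share reads. What the authors deposited is, judged from the spacing of the values, log2(RPKM + 1) plus 0.0001.

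Since the deposited table holds no counts, the main test was limma 3.58.1 in R 4.3.3 (trend, robust) on log2(RPKM + 1), pseudocount 1, two-sided, with Benjamini-Hochberg adjustment over 14320 genes and a threshold of 0.05. Fold changes on this scale are understated for low genes. Tested genes had at least 0.523 CPM in 2 libraries and 15 reads in total. Whole reads were recovered from the values, and 100% of the 19047 genes with reads came out whole within 0.001 reads. Recovered reads summed to 101% to 103% of the library totals, so some gene lengths, and with them read numbers, are too large. In simulated data 95.9% of genes and all 4 totals were recovered exactly. A floor of 3 reads was 0.123 to 0.237 CPM and covers counting error only. Gata3-KO libraries were 1.79 times as deep. The median-ratio factors were 0.861 and 0.769 in control and 1.17 and 1.29 in Gata3-KO. The model, tested on simulated data of 14320 genes, made 4.98% false calls. Symbols and GRCm38 coordinates came from RefSeq, in which 25275 identifiers were found.

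The Notch genes and all lists were chosen with earlier results of these data known. The rule for named genes was the 10 given genes, Gata3, the called pathway genes and a fixed set of pathway genes whatever their result, not all of which are reported here. The search for GATA letters was added after the data were seen. Alternatives were median-ratio and upper-quartile scaling, no filter, 5 CPM, pseudocount 0.1, limma-voom on recovered reads, a replicate block and leaving out each library. The rest was done in Python 3.11.15 with pandas 2.3.3, numpy 2.4.6, matplotlib 3.10.9 and scipy 1.17.1.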

Additional observations from a re-analysis of the deposited data

How the results depend on the processing

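The count of all called genes, 1251, was 144 with median-ratio scaling, 178 with upper-quartile scaling, 0 with no filter (4336 of 19047 genes at an unadjusted p under 0.05), 796 with a pseudocount of 0.1, 265 with limma-voom, 91 with voom and median-ratio scaling and 1693 with the filter of 5 CPM. Without a library it was 0 to 0 (2408 to 3799 at an unadjusted p under 0.05), or 0 to 33 with median-ratio scaling, where the lone library is assumed to vary like the other genotype. Among the Notch genes 0 were called in each of these settings except the filter of 5 CPM, where 1, Dll1, was called and fewer genes were tested. Of the pathway lists 6 genes were called, and 1, 0, 0, 3, 2, 1 and 7 in the order of the settings above, with 0 to 0 or 0 to 1 without a library. The 1 gene called with median-ratio scaling, with or without voom, was Neurl3, lower in Gata3-KO and not among the 6. The 7 were Jag2 (lower), Ctbp2 and 5 of the 6, Dll3 being under 5 CPM, and the 1 without a library was Myc. With the replicate block 996 genes, 0 Notch genes and 6 pathway genes were called, 5 higher and 1 lower, since Rfng no longer passed and Jag2 did (adjusted p = 0.0264), and with the block and median-ratio scaling 18, 0 and 0. Libraries of the same number did not deviate together (r = −0.02), so the numbers are not known to pair anything. Other causes were not tested.

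Dll1 stayed lower in Gata3-KO in every setting run, from −0.92 to −1.05 without a library on the deposited scale. The genes whose log2 difference changed sign were not called. With median-ratio scaling (the same value with the block), upper-quartile scaling and voom with median-ratio scaling, in that order, it was −0.15, −0.12 and −0.15 for Notch2, −0.015, −0.011 and −0.10 for Notch4, −0.14, −0.12 and −0.24 for Rbpj and −0.14, −0.11 and −0.14 for Ncstn. In the same order it was −0.22, −0.20 and −0.22 for Lfng, −0.022, −0.010 and −0.12 for Pofut1, −0.25, −0.23 and −0.27 for Numb and −0.49, −0.47 and −0.60 for Maml1, and it was −0.14, −0.12 and −0.15 for Tcf7 and −0.46, −0.43 and −0.47 for Il2ra. Without a library, over the deposited and median-ratio scales, it ranged from −0.27 to 0.92 for Notch1, −0.47 to 0.62 for Notch2, −0.045 to 0.36 for Notch3, −0.030 to 0.12 for Notch4, −0.46 to 0.58 for Rbpj, −0.18 to 0.91 for Hes1, −0.21 to 1.08 for Adam10, −0.18 to 0.56 for Ncstn, −0.73 to 0.69 for Lfng and −0.047 to 0.90 for Mfng. It also ranged from −0.26 to 0.49 for Pofut1, −0.58 to 0.022 for Mib1, −0.66 to 0.79 for Numb, −0.67 to 0.13 for Itch, −0.84 to 0.43 for Maml1, −0.83 to 0.055 for Heyl, −0.31 to 0.70 for Tcf7 and −0.66 to 0.40 for Il2ra. Depth limits Notch3, Notch4, Jag1 and Nrarp most.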
